A study of Mus musculus with 12 samples.

Results

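miR-130a (mmu-miR-130a on the array) is 1 of the 650 miRNA names carried by a 1-colour Agilent array, of which 611 are mouse and 39 viral, and it was taken by its name on the array. It was picked with its values on these 12 arrays already known, so its levels are given here as a description, with standard errors and without a test. The cells were mouse embryonic fibroblasts of the C57BL/6 strain, with ATF4 present (WT) or absent (KO). ATF4 is a transcription factor that is translated when cells are under endoplasmic reticulum (ER) stress. Fibroblasts of each genotype were either left untreated or grown with 2 ug/mL tunicamycin, which blocks N-linked glycosylation and so causes ER stress, for 12 h or 24 h. Each of the 6 groups had 2 arrays from what the series text calls independent experiments, and that text names the search for ATF4-dependent miRNAs at 12 h as the aim. The sources used here do not say how ATF4 was deleted, nor how many embryos or lines the cells came from. The arrays carry miRNA probes alone, so the loss of Atf4 was not checked.

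miR-130a belongs to the miR-130 and miR-301 family. A mature miRNA guides an Argonaute protein to messenger RNAs, mainly through its seed, which is the stretch from base 2 to base 8, and lowers their translation and stability. The family is known for roles in vascular and mesenchymal cells and in hypoxia and fibrosis, and the 4 members printed below come from different chromosomes. Mir130a (gene 387149) makes a hairpin of 64 bases at chr2:84741115-84741178 on the minus strand of GRCm38.p6. It overlaps 0 other genes in the RefSeq table, and Gm19426 lies 986 bases and Ypel4 2459 bases away. The mature sequences below, from RefSeq, are those of the family on the array, with the seed in capitals, since they show which miRNAs have the same seed and how far the rest of each differs. The array uses older names, and those printed were matched to the 3′ arm, except miR-721, whose reference name gives no arm.
miR-130a: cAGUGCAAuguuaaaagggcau
miR-130b: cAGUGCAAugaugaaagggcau
miR-301a: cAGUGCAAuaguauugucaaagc
miR-721: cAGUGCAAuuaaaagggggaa

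The mature miR-130a lies at chr2:84741116-84741137. miR-130b matches it at 20 of 22 positions, with the substitutions U11A and A13G counted from the 5′ end of miR-130a. miR-721 matches it at 15 of 21 positions and miR-301a at 12 of 22. miR-301b, the other family member on the array, is named only. The seed AGUGCAA is found in 7 of 1679 mature names in the mouse table (0.417 percent).

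miR-130a was measured by 2 probes of 10 spots each. All 20 spots were well above background on each of the 12 arrays and 0 were saturated. At most 2 spots per array were left out as outliers. The number of mouse miRNAs well above background ranged from 92 to 164 per array, with both ends in the KO 24 h group. Slide 1 held the 4 arrays of untreated cells and slide 2 the 8 arrays of treated cells, so slide and treatment cannot be told apart in any comparison of treated with untreated cells. KO and WT arrays of the same treatment shared a slide, but all WT arrays lay in array row 1 and all KO arrays in row 2, so row and genotype cannot be told apart either. Of 6 markers of fibroblasts and mesenchyme, 4 were well above background on all 12 arrays and 1 on none. Their summed scaled signal ran from 38.7 to 39.7 in untreated WT and from 16.2 to 33.0 in the other groups, and its part in the results was not tested. Most of that sum was miR-21 alone, so it does not describe the list as a whole. The log2 scaled signal of miR-21 was 5.17 and 5.21 in untreated WT and from 3.91 to 4.80 in the other groups. Of the markers of blood and endothelium, 8 of 9 were never well above background, as were all 6 of epithelium, 3 of 4 of muscle, all 4 of neural cells and 9 of 10 of pluripotent cells. Summed over a list, these other markers reached at most 0.223 on the same scale.

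Before any scaling between arrays, miR-130a was brightest in untreated WT cells and dimmer after tunicamycin in both genotypes. Its signal, in arbitrary units, was 1252 and 1197 in untreated WT. It was 485 and 543 in WT at 12 h, and 344 and 402 in WT at 24 h. Untreated KO cells gave 865 and 948. The 4 untreated arrays were thus above all 8 tunicamycin arrays, and the untreated WT arrays were above the untreated KO arrays. KO cells gave 584 and 483 at 12 h, and 265 and 568 at 24 h. In RNA from whole cultures, fewer cells of a kind and less RNA per cell cannot be told apart. The KO arrays at 24 h lay furthest apart, and the KO and WT arrays overlapped at each time. The labelling spike-in that each file header gives, as log10, ran from 1.98 to 2.39 on the untreated arrays. On the tunicamycin arrays it ran from 1.95 to 3.07, with 2.91 and 3.07 on the second WT and KO 12 h arrays. Its part in these signals was not tested.

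Arrays differ in overall brightness, so each signal was also divided by a measure of that brightness, the 75th percentile of the signals of 82 miRNAs that were detected well above background throughout. That divisor was 577 and 556 in untreated WT and 710 and 791 in untreated KO. Under tunicamycin it ran from 204 on the first KO 24 h array to 570 on the second WT 12 h array. After scaling, miR-130a was 2.17 and 2.15 in untreated WT, and from 0.952 to 1.30 on the other 10 arrays. Untreated WT was thus the only group that stood apart on this scale. The KO arrays were at 1.22 and 1.20 untreated, 1.13 and 1.16 at 12 h, and 1.30 and 1.00 at 24 h. WT arrays were at 1.12 and 0.952 at 12 h, and 1.19 and 1.13 at 24 h.

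**Figure D1:**
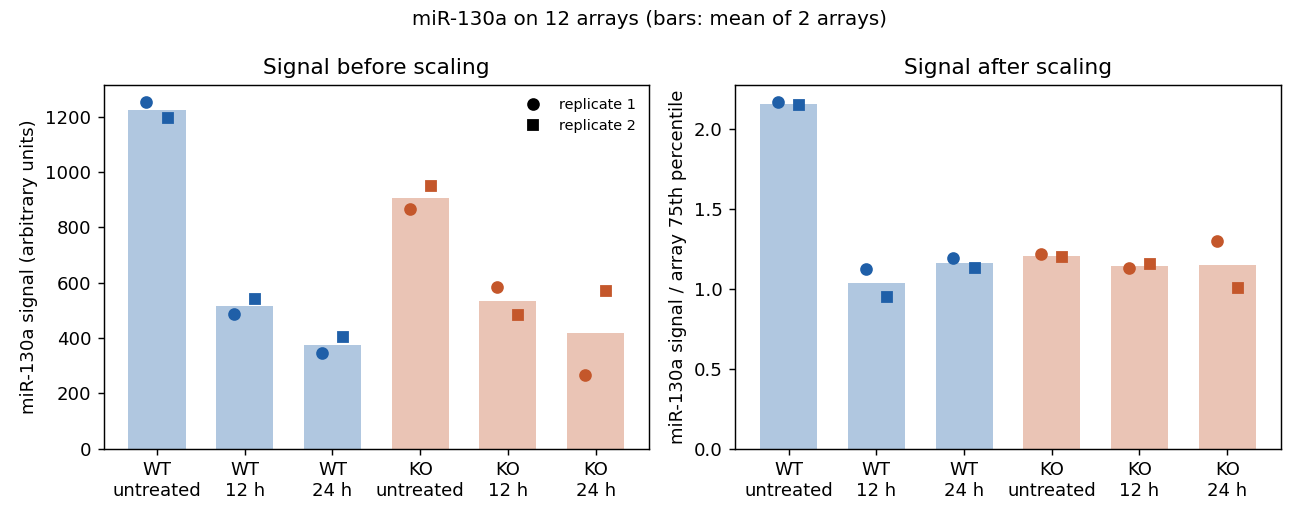
miR-130a in 6 groups before scaling (arbitrary units, left) and after division by the array's 75th percentile (right). Bars are means of 2 arrays, circles replicate 1 and squares replicate 2. WT is blue and KO orange, and 12 h and 24 h are times with tunicamycin. Before scaling all 4 untreated arrays, from 865 to 1252, are above the tunicamycin arrays. After scaling the untreated WT pair alone, at 2.15 and 2.17, is above the other 10 arrays.

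On the log2 scale of scaled signals the order of the group means was untreated WT (1.11 ± 0.0076, SD, n = 2), untreated KO (0.27 ± 0.018), WT at 24 h (0.22 ± 0.053), KO at 12 h (0.19 ± 0.022), KO at 24 h (0.19 ± 0.27) and WT at 12 h (0.05 ± 0.17). The step from untreated WT to untreated KO was 0.84, with no overlap of arrays. The step from untreated KO to WT at 24 h was 0.054, also with no overlap, and the lower 4 groups overlapped their neighbours. Without scaling the order was untreated WT, untreated KO, KO at 12 h, WT at 12 h, KO at 24 h and WT at 24 h. There the first 2 steps, of 0.44 and 0.77, had no overlap and the last 3 had. Untreated WT and untreated KO were first and second on both scales, and the order of the 4 tunicamycin groups was not the same.

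In WT cells miR-130a was lower with tunicamycin than without at both times, by about the same factor after scaling. At 12 h the log2 difference was -1.06 ± 0.14 (SE, n = 2 per group), which is 2.09-fold, and replicates 1 and 2 taken by number gave -0.95 and -1.18. At 24 h it was -0.89 ± 0.14, or 1.86-fold, with -0.86 and -0.93 by number. The treated and untreated WT arrays did not overlap at either time. Over the 145 mouse miRNAs tested, 53.8 percent were lower without overlap at 12 h and 52.4 percent at 24 h, and the medians of all 145 were -0.32 and -0.17. Below those medians miR-130a lay a further 0.75 at 12 h and 0.72 at 24 h. A common scaling of an array moves these figures only where values reach the floor, but they did move. Without scaling they were 0.75 and 0.78, and with spike-in scaling at 24 h miR-130a was at -1.99 and the median at -1.06. Without scaling the differences were -1.25 (2.39-fold) and -1.72 (3.29-fold), and arrays without overlap made up 71 and 82.8 percent of miRNAs in that direction.

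In KO cells the picture depended on the scaling. After scaling the difference was -0.079 ± 0.14 at 12 h and -0.081 ± 0.14 at 24 h, both smaller than their standard errors. The KO arrays at 12 h lay just below the untreated pair without overlap, as 28.3 percent of miRNAs did, and by number the differences were -0.11 and -0.051. At 24 h the arrays overlapped (0.094 and -0.26 by number), and 15.9 percent of miRNAs were lower without overlap. Without the first KO 24 h array the 24 h difference was -0.27 and without the second 0.11. Without scaling the difference was -0.77 (1.71-fold) at 12 h and -1.22 (2.33-fold) at 24 h, both lower in treated cells, with no overlap at either time. In that direction 69.7 and 60.7 percent of all miRNAs did not overlap. The median of all miRNAs moved with the scaling too, from 0.059 to -0.58 at 12 h and from 0.19 to -0.77 at 24 h. Relative to the median miR-130a was at -0.14 after scaling and -0.19 without at 12 h, and at -0.27 and -0.45 at 24 h.

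In untreated cells miR-130a was lower in KO than in WT. The log2 difference of KO from WT was -0.84 ± 0.14 (1.79-fold, n = 2 per group) after scaling, with -0.83 and -0.85 by replicate number and no overlap. The percentage of miRNAs lower in KO without overlap was 66.9, and the median of all miRNAs was -0.49, so that miR-130a lay 0.35 below the median. Without scaling the difference was -0.44 (1.35-fold), again without overlap, against a background of 46.9 percent and a median of -0.14. Scaled instead to the hybridisation spike-in that each file header gives, it was -0.16 ± 0.73 (SE), and the arrays overlapped. Under tunicamycin the size of the genotype difference depended on the scaling. At 12 h KO was above WT by 0.15 ± 0.14, with values of 0.0097 and 0.28 by number. Those arrays did not overlap, as for 32.4 percent of miRNAs in that direction, but they overlapped without scaling, at a difference of 0.049. At 24 h the difference was -0.027 ± 0.14 after scaling and 0.061 without, with overlap on both. With spike-in scaling it was 0.21 at 12 h and 0.82 at 24 h (SE 0.73 each, arrays overlapping). With the 75th percentile over all mouse miRNAs it was -0.17 and -0.53 (SE 0.65 each).

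The response of KO minus that of WT, which is what dependence on ATF4 would be read from, was 0.98 ± 0.19 at 12 h and 0.81 ± 0.19 at 24 h after scaling. By replicate number it was 0.84 and 1.13 at 12 h, and 0.96 and 0.67 at 24 h. The medians of all 145 miRNAs were 0.48 and 0.34 for the same quantity, which leaves 0.50 and 0.47 for miR-130a. Without scaling the differences in response were 0.48 and 0.50, 0.37 above their medians at both times. These values and the differences in WT and between untreated genotypes share the untreated WT arrays, so they are not separate measurements. With all 6 groups side by side, most of the difference in response after scaling lay in the untreated cells (-0.84 between genotypes) and little in the treated cells (0.15 at 12 h and -0.027 at 24 h). With spike-in scaling the difference in response was 0.37 at 12 h and 0.99 at 24 h, each with an SE of 1.04. Of this, -0.16 lay between the untreated genotypes, and 0.21 and 0.82 between the treated ones (SE 0.73 each). The treated part was thus the larger, by little at 12 h. KO and WT arrays overlapped in each of these comparisons, and the errors were wide beside the values.

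**Figure D2:**
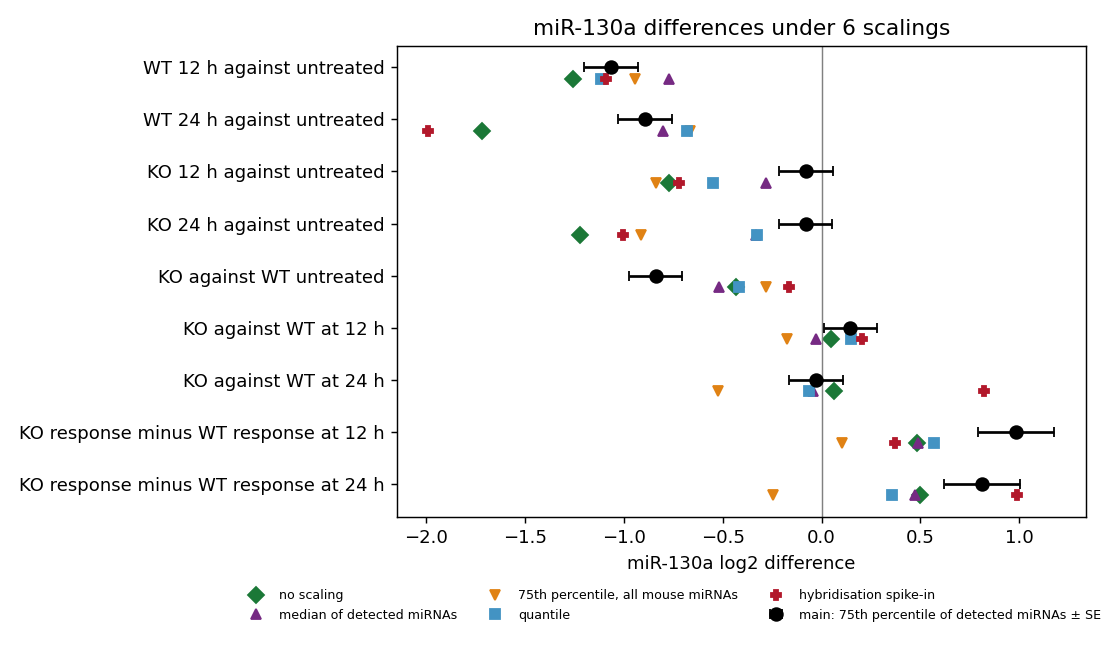
Log2 differences of miR-130a in 9 comparisons. The black circle is the main scaling with its standard error and the coloured marks are 5 other scalings of the same arrays. All 6 marks are below 0 for WT at both times and for untreated KO against WT. For KO with tunicamycin they run from near 0 to -1.22, and for the difference in response at 24 h from -0.25 to 0.99.

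Over 30 alternative ways of treating the data, untreated KO stayed below untreated WT in 30. Many of these could not move a miR-130a difference: floor, filter, spread estimate, blocks and arrays of other groups do not enter it. Only background correction, measure, scaling and leaving out an array of the groups compared could, so the tallies here overstate how far the sign was tried. WT with tunicamycin stayed below untreated WT in 29 of 29 at each time. The difference in response was above 0 in 30 of 30 at 12 h and in 29 of 30 at 24 h. At 24 h the exception was division by the 75th percentile over all mouse miRNAs, dim ones included, with -0.25, and at 12 h that setting gave 0.11. The size was less steady than the sign: the KO response ran from 0.039 to -0.84 at 12 h and from 0.11 to -1.23 at 24 h.

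The probes behind these values agreed closely with each other. In WT cells probe 1 gave -1.10 and probe 2 -1.04 at 12 h, and -0.93 and -0.87 at 24 h. For untreated KO against WT they gave -0.80 and -0.86. Over the 9 comparisons their difference ranged from 0.014 to 0.17 on the log2 scale. Within a probe, the spots of an array varied with a coefficient of variation of 1.14 to 7.99 percent for probe 1 and 2.09 to 7.79 percent for probe 2, from 8 to 10 spots. The spread between spots was therefore small beside that between replicate arrays at 24 h in KO cells.

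Among the other members of the seed family, miR-301a alone was well above background on all arrays. Its scaled signal was 0.414 and 0.412 in untreated WT, 0.390 and 0.268 at 12 h, and 0.353 and 0.381 at 24 h. In KO it was 0.297 and 0.286 untreated, 0.483 and 0.399 at 12 h, and 0.508 and 0.285 at 24 h. After scaling, unlike miR-130a, miR-301a had its lowest mean in untreated KO cells and was above them on 3 of 4 KO tunicamycin arrays. This contrast rested on the scaling. Without scaling its signal was 211 and 226 in untreated KO, 249 and 167 in KO at 12 h, and 103 and 161 in KO at 24 h. Untreated KO then had the second highest mean, as for miR-130a. In none of the 7 comparisons tested did miR-301a pass the adjusted threshold of limma's moderated test over the 145 miRNAs. The differences were -0.35 ± 0.28 (adjusted p = 0.442) for WT at 12 h, 0.59 (adjusted p = 0.457) for KO at 12 h and -0.50 (adjusted p = 0.211) for untreated KO against WT. With the untreated arrays fitted alone, that last difference passed (adjusted p = 0.00211, limma), and without scaling so did WT at 24 h, at -0.999 beside -0.17 (adjusted p = 0.024, limma). The KO response of miR-301a exceeded the WT response at 12 h by 0.94 ± 0.40 (adjusted p = 0.152, limma), and this passed without either one of the KO 24 h arrays (adjusted p = 0.0361).

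Because both miRNAs were read from the same array, the ratio of miR-130a to miR-301a needs no scaling; it was chosen after its values were seen. Set to 0 at the mean of untreated WT, its log2 was -0.86 and -0.56 in WT at 12 h, and -0.63 and -0.81 at 24 h. It was -0.35 and -0.32 in untreated KO, -1.16 and -0.85 in KO at 12 h, and -1.03 and -0.57 in KO at 24 h. The ratio was thus lower with tunicamycin in both genotypes and at both times, with no overlap of arrays in the 4 comparisons. How many other miRNAs would show no overlap on such a ratio was not worked out. In these 4 comparisons slide and treatment cannot be told apart. Relative to miR-301a, the difference of miR-130a was -0.71 and -0.72 in WT and -0.67 and -0.47 in KO, at 12 h and 24 h in turn. The difference in response was 0.041 at 12 h and 0.25 at 24 h on this measure, against 0.98 and 0.81 after scaling. The difference of untreated KO from untreated WT was -0.34, without overlap. These values describe unequal change of a pair of miRNAs and do not say which of them moved.

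**Figure D3:**
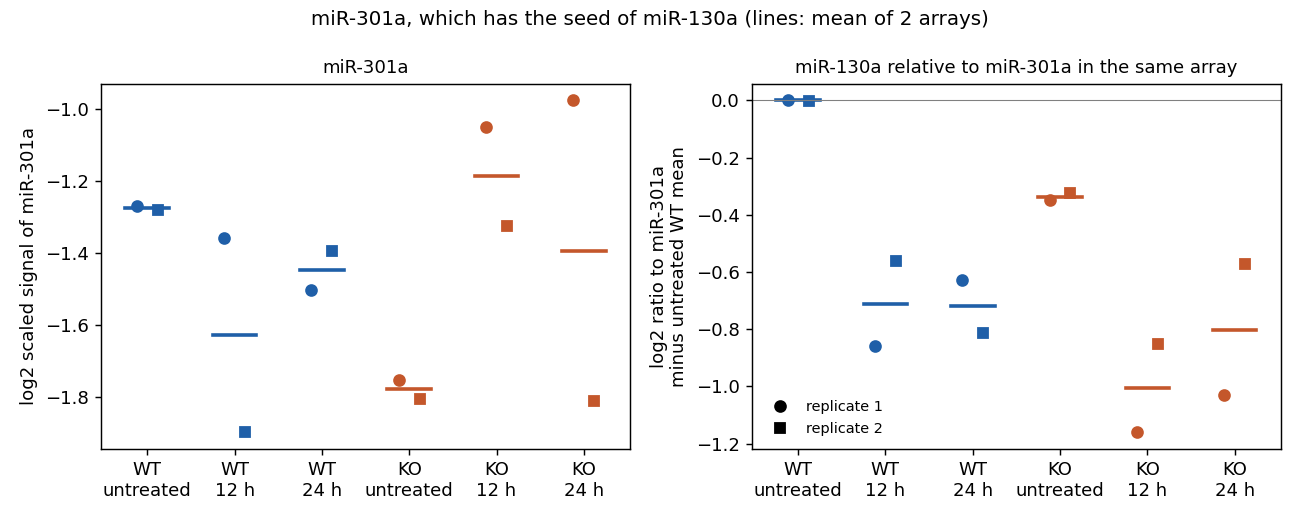
miR-301a in 6 groups (log2 scaled signal, left) and the log2 ratio of miR-130a to miR-301a within each array, set to 0 at the mean of untreated WT (right). Lines are means of 2 arrays, circles replicate 1 and squares replicate 2, WT blue and KO orange. The ratio is lower on all 8 tunicamycin arrays, from -0.56 to -1.16, than on the 4 untreated arrays, from -0.35 to 0.00087.

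The rest of the family was dim. miR-130b, the closest in sequence, was well above background on 4 of 12 arrays, and its signal ran from -3.85 to 45.8. miR-721 was well above background on 1 array, the second KO 24 h array, at a signal of 185, and from -12.1 to 13.3 on the others. miR-301b was on none, with signals up to 5.13. None of these passed the filter for testing. The value that the authors' deposited table lists for miR-130b on 5 arrays is not its own probes' signal alone. On each of the 5 it equalled the total gene signal of miR-130a plus the brighter miR-130b probe: on the first untreated WT array 819 for miR-130b, 809 for miR-130a and 9.92 for the total probe signal of that probe. These totals, and the total probe signals they are built from, are the authors' software's own and on a lower scale than the signal used above. The total gene signal of miR-130a itself equalled the sum of the total probe signals of its own probes on all 12 arrays.

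Part of the miR-130a seed also occurs in miRNAs of other families. In miR-148a, miR-148b and miR-152 the first 7 bases of miR-130a are found shifted by 1 base, and in miR-19a and miR-19b 6 bases starting at base 3 of miR-130a. They are shown with the shared bases in capitals.
miR-148a: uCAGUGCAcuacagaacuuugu
miR-148b: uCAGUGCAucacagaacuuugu
miR-152: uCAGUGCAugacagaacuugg
miR-19a: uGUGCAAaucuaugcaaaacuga
miR-19b: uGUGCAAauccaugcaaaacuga

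Of these and miR-301a, 5 were tested with limma (miR-301a, miR-148a, miR-152, miR-19a and miR-19b). The count below adjusted p of 0.05 was 2 of 5, both lower, in WT at 12 h, in WT at 24 h and in untreated KO against WT, where 30.3, 15.2 and 25.5 percent of all 145 miRNAs passed in that direction. In both WT counts 1 of the 2 was miR-152, which passed the filter only through the untreated groups. All its WT tunicamycin arrays were at the floor, so these 2 counts are set in part by filter and floor. In WT at 24 h miR-148a missed the threshold without any 1 of the untreated or 24 h WT arrays (adjusted p = 0.0691 to 0.0839, limma). In untreated KO against WT miR-152 missed it without the first WT or either KO untreated array (adjusted p = 0.0866 to 0.104, limma). In KO cells it was 0 of 5 at 12 h and at 24 h (background 1.38 and 2.76 percent), and 1 of 5 at each time had an unadjusted p under 0.05 (miR-148a at 12 h, miR-152 at 24 h), as did 14.5 and 17.9 percent of all 145. The KO response exceeded the WT response for 2 of 5 at 12 h and 1 of 5 at 24 h (background in that direction 20.7 and 7.59 percent). The 2 at 12 h included miR-152, again with its WT 12 h arrays at the floor. The median of the 5 was -0.35 in WT at 12 h, where that of all tested miRNAs was -0.32, and 0.82 for the difference in response at 12 h, where that of all was 0.48.

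The members that passed were the dim miR-148a and miR-152. miR-148a fell by 1.32 ± 0.24 in WT at 12 h (adjusted p = 0.00684, limma) and differed by -0.97 between untreated KO and WT (adjusted p = 0.0207), and its difference in response was 2.03 ± 0.33 at 12 h (adjusted p = 0.00917). It was well above background on 1 of 2 arrays in WT at 12 h and at 24 h. On the second WT 12 h array miR-148a was at the floor set for dim values. The floor thus sets part of its WT 12 h difference, of its difference in response at 12 h and of their p. miR-152 was well above background on both arrays in the untreated groups alone and passed the filter through them. In WT at 12 h both of its arrays were at the floor set for dim values, so the floor sets the size and the p of its call there, and no size is given. In WT at 24 h both of its arrays were again at the floor and not well above background, so the floor sets the p of that call too. There miR-152 was at least 1.32-fold lower than in untreated WT. The untreated genotype difference of miR-148a missed the threshold without any 1 of the 4 untreated arrays (adjusted p = 0.0813 to 0.11, limma). The signs of these results turned with normexp background correction, except that of miR-148a in WT at 12 h. Some, that one included, turned with the authors' total gene signal or deposited values. Those totals are not the signal of the miRNA's own probes alone on 4 of 12 arrays for miR-148a and on 5 of the 10 where miR-152 was detected, all of treated cells, so they do not measure these 2 by themselves. miR-19a and miR-19b, well above background on all arrays, had the opposite sign to miR-130a in WT cells after scaling: at 12 h their differences were 0.39 ± 0.41 and 0.29 ± 0.43, short of the threshold (adjusted p = 0.575 and 0.697, limma). That sign was not steady. Over the alternatives WT at 24 h ran from -0.53 to 0.79 for miR-19a and from -0.61 to 0.73 for miR-19b. At 12 h it ran from 0.12 to 0.68 and from -0.094 to 0.59. In untreated KO against WT miR-19a and miR-19b were at -0.89 and -0.86, the sign of miR-130a, also short of the threshold (adjusted p = 0.129 and 0.151, limma). Each passed there in 3 of 30 alternatives, and in KO at 24 h in 1 of 29.

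The miRNAs whose profile was most like that of miR-130a were sought among the other 81 that were well above background on all arrays, by Pearson correlation of log2 scaled signal over the 12 arrays. They were miR-16 (r = 0.951), miR-107 (0.945), miR-15a (0.928), miR-467b (0.924) and miR-21 (0.912). Over the 6 group means r was 0.970, 0.959, 0.965, 0.974 and 0.924 in the same order. These points share arrays, slides and the divisor, and 4 of the 5 led without scaling as well. There r was 0.986 for miR-16, 0.983 for miR-107, 0.981 for miR-15a and 0.976 for miR-21, while the median over the 81 was 0.804, against 0.323 after scaling. miR-15a and miR-16 come from shared transcripts and, like miR-107, are known for targeting cell cycle genes; miR-21 is abundant in fibroblasts.

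Each of the 5 was high in untreated WT cells, as their choice by correlation made likely; r was above 0.5 for 29 of the 81. Relative to untreated WT at 12 h miR-16 was at -0.94, miR-107 at -0.80, miR-15a at -0.82, miR-467b at -1.14 and miR-21 at -1.06, beside -1.06 for miR-130a. In untreated KO they were at -0.78, -0.59, -0.55, -0.93 and -0.56, beside -0.84. From untreated KO to KO at 12 h they moved by 0.047, 0.10, -0.074, 0.17 and -0.087. The lowest correlations with miR-130a were those of miR-27a (r = -0.514), miR-23a (-0.399) and miR-467a* (-0.398). Without scaling these were 0.534, 0.646 and 0.0866, so their sign rested on the scaling.

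**Figure D4:**
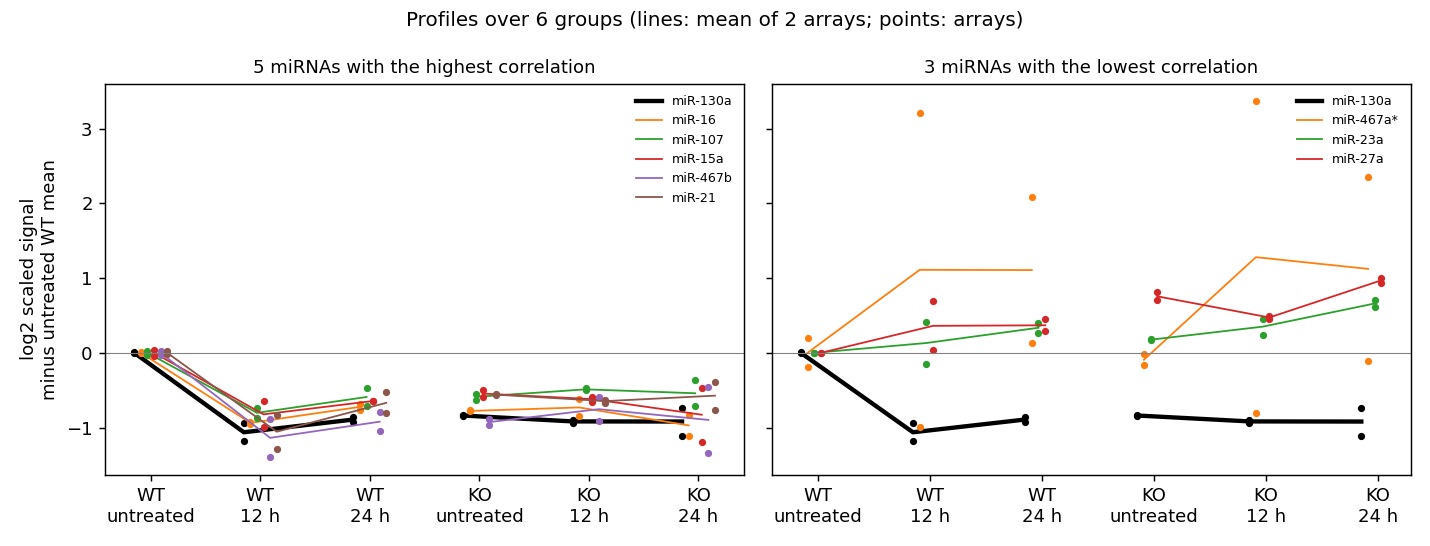
Log2 scaled signal relative to the mean of untreated WT over 6 groups, for miR-130a (black) with the 5 miRNAs of highest correlation (left) and the 3 of lowest (right). Lines join the means of 2 arrays within a genotype and points are arrays. On the left all 6 miRNAs are below 0 in every group but untreated WT. On the right miR-27a and miR-23a have means above 0 in those groups, and the arrays of miR-467a* lie far apart within tunicamycin groups.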

How the data were processed

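Total RNA from 12 samples was labelled with Cy3, and the authors read the arrays with Agilent Feature Extraction 10.7.1.1, per the submitters' processing notes. Per the file headers the processed signal is an intensity, background-subtracted and not scaled between arrays; the authors' total gene signal is an intensity per miRNA, and other deposited columns hold 0 or 1 flags. In the deposited value table each entry was that total on a log2 scale, neither scaled nor centred, and blank where a miRNA was not detected.

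For each miRNA the unflagged spots of a probe were averaged on the processed signal and its probes added up. Division by the 75th percentile of 82 miRNAs on that array, a floor of 0.0328 (from the 1st percentile of detected scaled signals) and the logarithm to base 2 followed. A probe was well above background where at least 50 percent of its spots were so marked; 145 mouse miRNAs were so on both arrays of at least 1 group. limma 3.58.1 under R 4.3.3 (lmFit, eBayes) fitted all 6 groups at once, with 6 residual degrees of freedom, a prior of 1.02 and Benjamini-Hochberg adjustment at 0.05. The fit was tested on simulated data. The number of arrays limits the precision.

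miR-130a, its relatives and the marker lists were chosen with earlier results of these data known. Named miRNAs were the seed family, the relatives by a shifted seed, and the 5 most and 3 least correlated. Alternatives covered background correction (normexp, offset 50, on the median spot signal, where the plan named the mean), the measure per miRNA, scaling, floor, filter, spread estimate, replicate and scan blocks (statmod 1.5.0) and leaving out each array. Spike-in scaling and crossed replicate numbers were added after the data were seen. Replicate numbers match scans: deviations from group means correlated at 0.68 to 0.95 between arrays with the same number on a slide, and at -0.54 to -0.24 across slides. The main fit took no pairs. Differences by number between treated and untreated cells join different scans. KO and WT arrays of the same treatment and number shared a scan, which the main fit left out. With scan as a fixed block 50, 32 and 16 miRNAs passed in untreated KO against WT and the response difference at 12 h and 24 h. The main fit gave 47, 33 and 12.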

Additional observations from a re-analysis of the deposited data

Results flagged for a closer look

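Among the relatives of miR-130a, 3 results were picked out because the tunicamycin response differed between genotypes by the test of that difference (limma, adjusted over 145 miRNAs). The KO response of miR-148a exceeded the WT response by 2.03 at 12 h (adjusted p = 0.00917, passing in 20 of 29 alternatives, with adjusted p from 0.00247 to 1) and by 1.53 at 24 h (adjusted p = 0.0416, passing in 12 of 29, from 0.0124 to 1). The corresponding value for miR-152 was 0.82 at 12 h (adjusted p = 0.0181, passing in 17 of 29, from 0.00791 to 1), but both WT 12 h arrays were at the floor and miR-152 passed the filter only through the untreated groups, so the floor sets this size and its p. The 24 h value of miR-148a missed the threshold without any 1 of the WT or KO untreated arrays, the WT 24 h arrays or the KO 12 h arrays (adjusted p = 0.0563 to 0.144, limma). That of miR-152 missed it without the second WT 12 h array or either KO untreated array (adjusted p = 0.0512 to 0.0675, limma). Both are dim: miR-148a was well above background on 9 of 12 arrays and miR-152 on 6. The second WT 12 h array of miR-148a was at the floor, so the floor sets part of its 12 h value too. Its 24 h value rests in part on the first WT and first KO 24 h arrays. There miR-148a was not well above background, at signals of 12.0 and 14.7. No result on miR-130a itself is listed, since it has no test here.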

How the results depend on the processing

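The signal over background limits the dim relatives, and 2 arrays a group limit everything else. The cause of the movements below was not tested. Slide as a block was not run, since each group lies on 1 slide. The values of miR-130a that moved by more than the spread between replicates, and those that turned sign, were these. For WT at 12 h it was -1.06, and -0.92 with normexp correction, -1.23 with deposited values, -0.77 with median scaling, -0.94 with the percentile over all mouse miRNAs and -1.25 with no scaling, and from -1.18 (without WT 12 h replicate 1) to -0.94 (without WT 12 h replicate 2) with an array left out. For WT at 24 h it was -0.89, and -0.95 with total gene signal, -1.71 with deposited values, -0.80 with median scaling, -0.67 with the percentile over all mouse miRNAs, -0.68 with quantile normalization, -1.72 with no scaling and -1.99 with spike-in scaling, and from -0.93 (without WT 24 h replicate 1) to -0.86 (without WT 24 h replicate 2) with an array left out. For KO at 12 h it was -0.079, and 0.039 with normexp correction, -0.11 with total gene signal, -0.74 with deposited values, -0.28 with median scaling, -0.84 with the percentile over all mouse miRNAs, -0.55 with quantile normalization, -0.77 with no scaling and -0.72 with spike-in scaling, and from -0.094 (without KO 12 h replicate 2) to -0.064 (without KO 12 h replicate 1) with an array left out. For KO at 24 h it was -0.081, and 0.0088 with normexp correction, -1.23 with deposited values, -0.33 with median scaling and quantile normalization, -0.91 with the percentile over all mouse miRNAs, -1.22 with no scaling and -1.002 with spike-in scaling, and from -0.27 (without KO 24 h replicate 1) to 0.11 (without KO 24 h replicate 2) with an array left out. For untreated KO against WT it was -0.84, and -0.77 with total gene signal, -0.43 with deposited values, -0.52 with median scaling, -0.28 with the percentile over all mouse miRNAs, -0.42 with quantile normalization, -0.44 with no scaling and -0.16 with spike-in scaling, and from -0.85 (without KO untreated replicate 1) to -0.83 (without KO untreated replicate 2) with an array left out. For KO against WT at 12 h it was 0.15, and -0.028 with median scaling and -0.17 with the percentile over all mouse miRNAs, and from 0.025 (without WT 12 h replicate 2) to 0.27 (without WT 12 h replicate 1) with an array left out. For KO against WT at 24 h it was -0.027, and 0.058 with normexp correction, 0.054 with deposited values, -0.53 with the percentile over all mouse miRNAs, 0.061 with no scaling and 0.82 with spike-in scaling, and from -0.21 (without KO 24 h replicate 1) to 0.16 (without KO 24 h replicate 2) with an array left out. For the response difference at 12 h it was 0.98, and 0.50 with deposited values, 0.49 with median scaling, 0.11 with the percentile over all mouse miRNAs, 0.57 with quantile normalization, 0.48 with no scaling and 0.37 with spike-in scaling, and from 0.86 (without WT 12 h replicate 2) to 1.105 (without WT 12 h replicate 1) with an array left out. For the response difference at 24 h it was 0.81, and 0.48 with deposited values, 0.47 with median scaling, -0.25 with the percentile over all mouse miRNAs, 0.36 with quantile normalization, 0.50 with no scaling and 0.99 with spike-in scaling, and from 0.62 (without KO 24 h replicate 1) to 1.000 (without KO 24 h replicate 2) with an array left out.

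The count of miRNAs passing adjusted p of 0.05 was not steady. For WT at 12 h 45 became 0 with normexp correction, the percentile over all mouse miRNAs and spike-in scaling, 3 with total gene signal, deposited values and median scaling, 4 with quantile normalization, 23 with no filter, 29 with the filter on all arrays and 27 with only the groups compared, and from 19 (without WT untreated replicate 1) to 61 (without KO 24 h replicate 1) with an array left out. For WT at 24 h 22 became 0 with normexp correction, total gene signal and the percentile over all mouse miRNAs, 3 with median scaling and quantile normalization, 63 with no scaling, 11 with no filter, 4 with the filter on all arrays, 40 with only the groups compared and 1 with spike-in scaling, and from 9 (without WT 24 h replicate 2) to 47 (without KO 24 h replicate 1) with an array left out. For KO at 12 h 2 became 0 with normexp correction and the filter on all arrays, 1 with total gene signal, deposited values, median scaling, the percentile over all mouse miRNAs, quantile normalization, spike-in scaling and the crossed block, 18 with no scaling and 4 with only the groups compared, and from 1 (without WT 12 h replicate 1) to 14 (without KO 24 h replicate 1) with an array left out. For KO at 24 h 4 became 0 with normexp correction, the filter on all arrays and only the groups compared, 2 with mean log2 over probes and the replicate block, 13 with deposited values, 1 with median scaling, the percentile over all mouse miRNAs, quantile normalization, no filter, spike-in scaling and the crossed block and 55 with no scaling, and from 1 (without WT 12 h replicate 1) to 37 (without KO 24 h replicate 1) with an array left out. For untreated KO against WT 47 became 0 with normexp correction, 4 with total gene signal, 10 with deposited values, 14 with median scaling, 1 with the percentile over all mouse miRNAs, 5 with quantile normalization, 26 with no scaling, 17 with no filter, 23 with the filter on all arrays, 90 with only the groups compared and 11 with spike-in scaling, and from 12 (without WT untreated replicate 1) to 73 (without KO 24 h replicate 1) with an array left out. For the response difference at 12 h 33 became 0 with normexp correction, the percentile over all mouse miRNAs and spike-in scaling, 1 with total gene signal and quantile normalization, 2 with deposited values, 3 with median scaling, 13 with no scaling, 7 with no filter and 19 with the filter on all arrays, and from 10 (without KO untreated replicate 1) to 48 (without KO 24 h replicate 1) with an array left out. For the response difference at 24 h 12 became 0 with normexp correction, the percentile over all mouse miRNAs, the filter on all arrays and spike-in scaling, 3 with total gene signal, 4 with deposited values, 5 with median scaling and no filter, 1 with quantile normalization, 7 with only the groups compared and 23 with scan as a random block, and from 6 (without KO untreated replicate 1) to 34 (without KO 24 h replicate 2) with an array left out. With the replicate number as a block the counts were 51, 28, 2, 2, 54, 33 and 15, in the order WT at 12 h and 24 h, KO at 12 h and 24 h, untreated KO against WT, and the response difference at 12 h and 24 h, and the miR-130a differences were the same to 2 decimals. With crossed numbers, chosen after seeing the data, they were 45, 27, 1, 1, 53, 30 and 14.

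The sign turned for miR-148a in untreated KO against WT (0.82 with normexp correction), miR-148a in the response difference at 12 h (-0.65 with normexp correction and -0.30 with deposited values), miR-148a in the response difference at 24 h (-1.38 with normexp correction), miR-148a in WT at 12 h (0.57 with total gene signal and 0.35 with deposited values), miR-148a in WT at 24 h (0.78 with normexp correction, 1.19 with total gene signal and 0.44 with deposited values), miR-152 in untreated KO against WT (1.01 with normexp correction, 0.070 with the percentile over all mouse miRNAs and 0.19 with spike-in scaling), miR-152 in the response difference at 12 h (-0.95 with normexp correction, -0.82 with total gene signal and -1.24 with deposited values), miR-152 in WT at 12 h (0.013 with normexp correction, 2.13 with total gene signal and 1.91 with deposited values), miR-152 in WT at 24 h (0.93 with normexp correction and 0.77 with total gene signal). Total gene signals and deposited values of these 2 include signal beyond their own probes on 4 of 12 arrays for miR-148a and 5 of 10 for miR-152, so turns under them say nothing of these miRNAs alone.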

Other observations

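The sum seen for miR-130b, in which the total gene signal of miR-130a was added to a probe of its own, was not particular to that pair. On 4 arrays the total of miR-148b equalled that of miR-148a plus its own brighter probe. Over all arrays 617 of 1849 totals above detection (33.4 percent) were off the sum of the total probe signals of the miRNA's own probes by more than 1 percent. Of these 550 were above it, and 544 of the 550 equalled, within 0.1 percent, the total of the detected name just before it in alphabetical order plus probes of its own. miR-130a was on none of these lists: its total departed from the sum of its total probe signals by at most 0.000268 percent.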
